A study of Mus musculus with 12 samples.

Results

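The comparison set RNA recovered with YTHDF2 against the RNA of the same lysates in myeloid cells of unirradiated tumors. It used 6 of the 12 libraries of the series, the 3 Ctrl IP and the 3 Ctrl Input libraries, and asked which transcripts came down with YTHDF2 before any irradiation. The cells were sorted as CD11b+ from tumors that MC38 cells, of a murine colon carcinoma, had formed in mice, and both groups were labelled WT and Control. According to the methods of the study, WT mice carried the floxed *Ythdf2* allele without Cre, so YTHDF2 was intact in both groups. Each replicate was a pool of cells from several mice, and the methods call the pools technical replicates, so p-values measure only the spread between these pools. A part of each lysate was kept as Input and the remainder went to the IP with an antibody against YTHDF2. The labels name one antibody supplier and an mRNA isolation, whereas the methods name another supplier and a total RNA library kit. No IP with a control antibody was used here, so a level in the IP includes whatever RNA the procedure carries over.

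YTHDF2 is a cytoplasmic reader of N6-methyladenosine (m6A), the most common internal modification of mRNA. It binds methylated transcripts and recruits the CCR4-NOT deadenylase, which shortens the poly(A) tail and starts decay. The methyl group is placed by a nuclear complex around METTL3 and METTL14, mainly at an A within a short motif such as GGACT, and it is known to be dense in long internal exons, near stop codons and in 3′ UTRs. RNA immunoprecipitation followed by sequencing (RIP-seq) counts the transcripts that come down with the protein. A gene is higher in IP when its count, scaled between libraries as described below, is greater in the IP than in the Input. Both a rise and a fall are thus relative to the other transcripts of the same library.

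Of the 54446 genes with a line of counts, 17416 had at least 10 counts in at least 3 of the 6 libraries and were tested. Counts on genes ran from 34445784 to 40008607 in the Input and from 28919897 to 33882664 in the IP libraries, and 3 counts were worth 0.0701 to 0.112 CPM (counts per 1000000 counts on genes, with library totals scaled by TMM, a normalization that assumes most genes do not change). Reads on no annotated gene made up 27.0% ± 0.023 (SD, n = 3) of the Input and 42.3% ± 0.46 (SD, n = 3) of the IP counts, and the part of this difference in the results was not tested. The 18 markers of CD11b+ myeloid cells were all detected, with a summed level of 11700 to 12400 CPM in the Input libraries and 5620 to 5750 CPM in the IP libraries. The summed level of 18 T and NK cell markers was 7.35 to 8.5 CPM in the Input and 6.66 to 11.7 CPM in the IP. For 12 B and plasma cell markers it was 65.4 to 67.8 and 88.8 to 91.1 CPM, for 12 endothelial markers 94.6 to 103 and 130 to 141 CPM, for 12 fibroblast markers 59 to 62.6 and 46.6 to 54.2 CPM, and for 13 epithelial and tumor cell markers, 4 of them at 0 in the Input and in the IP, 115 to 123 and 73.4 to 79.7 CPM. *Cdh1* alone was at 114 CPM in the Input and 72.7 CPM in the IP, so nearly all of the epithelial and tumor cell sum was this gene. Most of the fibroblast sum was *Thy1*, at 47.8 CPM in the Input and 32.6 CPM in the IP. The part of these other cells in the results below was not tested. Because IP and Input are parts of the same lysates, these sums compare recovered RNA between them and not numbers of cells. Within the Input, the number of cells of a type and the RNA per cell cannot be told apart.

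The transcript of *Ythdf2* itself was in the IP, at 55.6, 55 and 55.6 CPM in the Input and 92.3, 93.7 and 92.3 CPM in the IP. All IP libraries were above all Input libraries, with a log2 IP over Input of 0.74 ± 0.055 (SE) and an adjusted p of 1.44e-09 in edgeR's quasi-likelihood test. Neither of its paralogs was called higher. *Ythdf1* was at 38, 38.5 and 43.8 CPM in the Input and 34, 35.6 and 38.8 CPM in the IP, and the groups overlapped (log2 -0.15 ± 0.083 (SE), adjusted p = 0.118 in edgeR's quasi-likelihood test, with a sign that turned under upper-quartile scaling). *Ythdf3* was at 62.8, 72.5 and 66 CPM in the Input and 62.1, 54.8 and 51.1 CPM in the IP, lower in IP by a small amount (log2 -0.26 ± 0.077 (SE), adjusted p = 0.00652 in edgeR's quasi-likelihood test), a call lost without IP replicate 2 (log2 -0.20) or IP replicate 3 (log2 -0.16). Both paralogs were chosen after their values were seen.

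Abundant, strongly held transcripts are shown by *Tnrc6c*, *Ankrd11*, *Purb* and *Son*. *Tnrc6c*, a GW182 protein that links Argonaute to the deadenylases, was at 226, 211 and 211 CPM in the Input and 3079, 3107 and 3238 CPM in the IP, and its log2 IP over Input was 3.86 ± 0.039 (SE). *Ankrd11*, an ankyrin repeat chromatin cofactor that recruits histone deacetylases, was at 1333, 1222 and 1240.0 CPM in the Input and 10114, 10126 and 10442 CPM in the IP (log2 3.02 ± 0.034 (SE)). In every IP library each of these was several times above every Input library. *Purb*, a single-stranded DNA and RNA binding protein encoded by a gene with 1 exon, was at 397, 372 and 376 CPM in the Input and 3099, 3175 and 3129.5 CPM in the IP (log2 3.04 ± 0.035 (SE)). *Son*, a scaffold of nuclear speckles and a splicing cofactor, was at 1212, 1186 and 1202 CPM in the Input and 7095, 7163 and 7084 CPM in the IP (log2 2.57 ± 0.028 (SE)). Per kilobase of exon, *Ankrd11* reached an RPKM of 76.3 in the Input and 617 in the IP, *Son* 80.5 in the Input and 477 in the IP, *Purb* 45.9 in the Input and 377 in the IP and *Tnrc6c* 16.8 in the Input and 245 in the IP. *Ankrd11* and *Son* thus had the highest IP level of the 4 per length, while *Tnrc6c* had the largest ratio of IP to Input.

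The longest coding transcripts of these 4 genes all held GGACT, as did 92.4% of the transcripts of tested protein-coding genes. The motif occurred 16 times in *Tnrc6c*, 16 times in *Son*, 12 times in *Ankrd11* and 7 times in *Purb*. To show the letters that this search counts, the 29-base window around the GGACT nearest to the end of the coding sequence is given for each, 5′ to 3′ on the transcript strand from GENCODE M21 on GRCm38, with the motif in capitals. Only the transcript strand was searched, the motif does not overlap itself, and a match is not evidence of methylation at that base.
Tnrc6c (3′ UTR, chr11:117761647-117761675, plus strand): tgagtgtgtgagGGACTtaactgtgggtt
Son (coding sequence, chr16:91659883-91659911, plus strand): ggagaagaaaagGGACTcttcattacggt
Ankrd11 (coding sequence, chr8:122887334-122887362, minus strand): cacaatgctcttGGACTccgaggtctaca
Purb (coding sequence, chr11:6475154-6475182, minus strand): ctccatcaccgtGGACTcgaagcgcttct

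**Figure D1:**
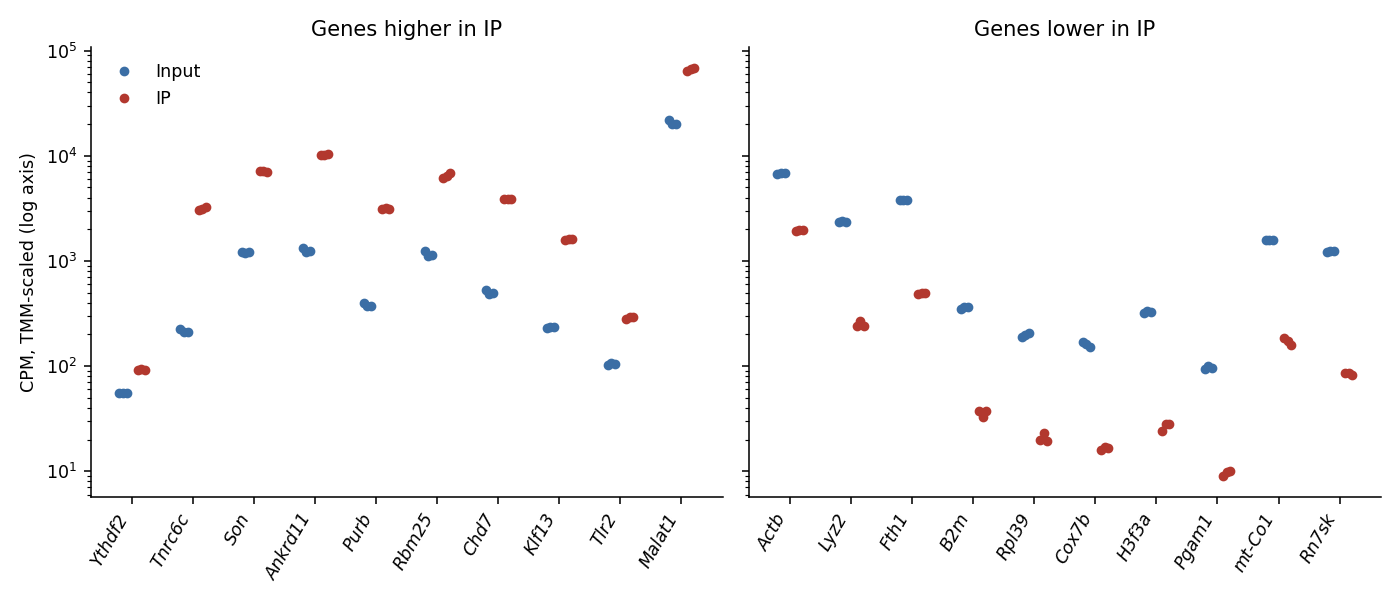
Level of 20 named genes in each of the 3 Input (blue) and 3 IP (red) libraries, in TMM-scaled CPM on a log axis. In every gene shown the IP points lie wholly above (left panel) or wholly below (right panel) the Input points, and the replicates of a group lie close together.

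Across all genes, 5943 of 17416 were higher in IP (34.1%) and 6019 were lower (34.6%) at an adjusted p-value under 0.05. Most tested genes were thus called, which goes against the assumption of TMM, so the level taken as no change depends on the scaling. Changes of at least 2-fold that passed the same test numbered 3625 higher (20.8%) and 3232 lower (18.6%). All IP libraries lay above all Input libraries in 35.8% of tested genes and below them in 37.1%. For the 13029 protein-coding genes of the nuclear genome these calls were 4281 higher (32.9%) and 5315 lower (40.8%), and every count of list members below is to be read against these shares. The median log2 IP over Input was 0.02 over all tested genes and -0.10 over the protein-coding genes. The gene lists were drawn up by hand by function, with earlier results of these data known, and are described by counts and medians only. Unless stated, each gene named below as higher or lower passed edgeR's quasi-likelihood test with an adjusted p of at most 0.0304 and with no overlap between the 3 IP and 3 Input libraries, and the value after ± is the SE for a log2 IP over Input and the SD over 3 libraries for a mean in CPM.

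**Figure D2:**
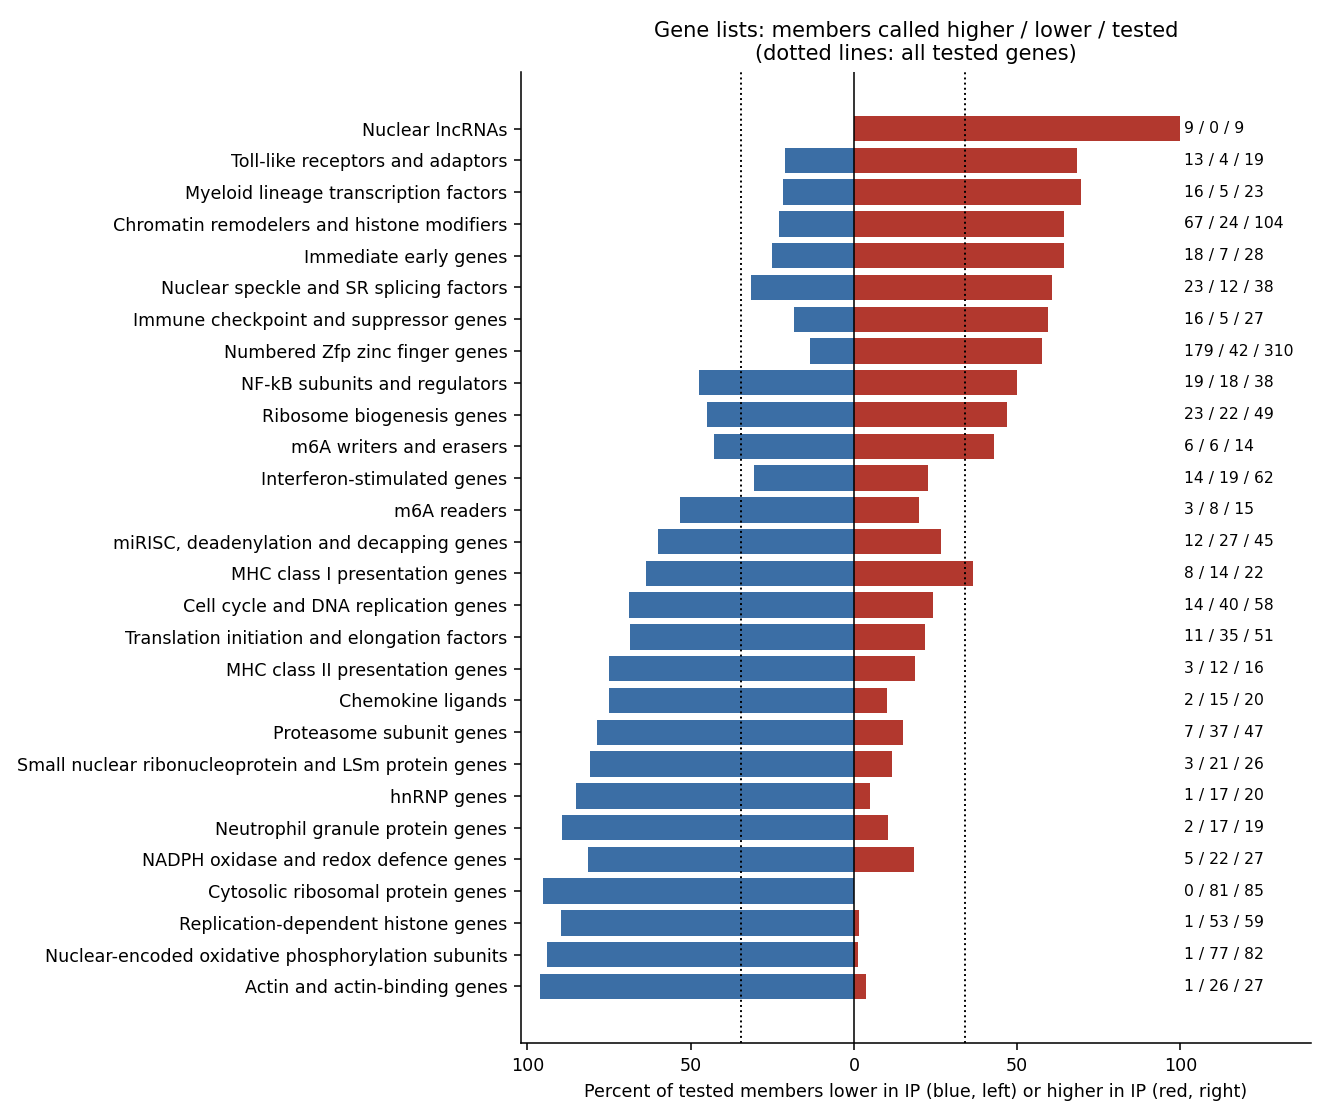
Share of the tested members of 28 gene lists called lower (blue, to the left) or higher (red, to the right) in IP, in percent, with the numbers higher, lower and tested at the right. Dotted lines mark the shares of all tested genes, 34.1% higher and 34.6% lower, and lists of ribosomal protein, oxidative phosphorylation, histone and actin genes lie almost wholly to the left.

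Transcripts of the m6A pathway itself were split. Among the writers and erasers 6 of 14 tested members were higher in IP and 6 were lower, with a median log2 of 0.11 that turned negative when libraries were scaled by size only. The members higher included accessory subunits of the writer. *Zc3h13*, the zinc finger subunit that keeps the complex in the nucleus, was at 304, 283 and 284 CPM in the Input and 962, 978 and 1074 CPM in the IP. *Rbm15b*, which brings the complex to its RNA, was at 54.6, 51.5 and 48.5 CPM in the Input and 262, 240.5 and 270.0 CPM in the IP, and its homolog *Rbm15* rose from 30.8 ± 0.44 to 106 ± 4.9 CPM. *Virma*, the scaffold subunit, rose by less, with a log2 of 0.74 ± 0.064. In contrast, *Mettl14*, the RNA-binding partner of the catalytic subunit, fell from 27.3 ± 1.8 to 12.4 ± 0.28 CPM (log2 -1.14 ± 0.1), and *Wtap*, the adaptor, from 57.2 ± 2.6 to 26.2 ± 1.2 CPM (log2 -1.13 ± 0.075). The demethylase *Fto* was higher in IP (log2 0.78 ± 0.061). Of the readers, 3 of 15 tested members were higher in IP and 8 were lower. *Ythdc1*, the nuclear reader, was at 207, 195 and 193 CPM in the Input and 540.4, 603 and 604 CPM in the IP, and *Eif3a*, a subunit of the eIF3 complex that can bind m6A in 5′ UTRs, was at 1486, 1331 and 1317 CPM in the Input and 4291, 4426 and 4589 CPM in the IP. *Hnrnpa2b1* and *Elavl1*, which stabilize or process RNA, were lower, with log2 values of -1.62 ± 0.036 and -1.58 ± 0.089.

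Among genes of mRNA silencing and decay, the transcripts of miRISC, deadenylation and decapping factors were mostly depleted: 12 of 45 tested members were higher in IP and 27 were lower. The 3 GW182 scaffolds stood at the other end of this list. *Tnrc6a* was at 418, 396 and 386 CPM in the Input and 2356, 2387 and 2444 CPM in the IP (log2 2.58 ± 0.037), and *Tnrc6b* at 191, 183 and 184 CPM in the Input and 1046, 989 and 1030.4 CPM in the IP (log2 2.46 ± 0.039), so with *Tnrc6c* all members of the family were among the most strongly held of the list. Among members lower in IP, *Pnrc2*, a decapping coactivator, had a log2 of -1.78 ± 0.09, *Lsm14a*, a processing-body protein, of -1.54 ± 0.11, and *Btg1*, an antiproliferative factor that binds the deadenylase, of -0.69 ± 0.039. *Upf2*, a core factor of nonsense-mediated decay and one of the genes with the largest rises, was at 279, 252 and 238 CPM in the Input and 2409, 2546 and 2693 CPM in the IP (log2 3.31 ± 0.055).

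RNA-processing genes separated by family. Of the nuclear speckle and SR splicing factors, 23 of 38 tested members were higher in IP and 12 were lower (median log2 0.45). Besides *Son*, members with long arginine-serine-rich regions were among those higher. *Rbm25* was at 1255, 1119.8 and 1147 CPM in the Input and 6182, 6468 and 6854 CPM in the IP, *Luc7l3*, a U1-associated protein, rose from 713 ± 36 to 3813 ± 1.3e+02 CPM, and *Acin1*, a component of the exon junction complex periphery, from 789.9 ± 54 to 2882 ± 1.6e+02 CPM. *Srek1* and *Pnisr*, both splicing regulators of this kind, had log2 values of 2.75 ± 0.052 and 2.61 ± 0.039. Classical SR proteins were among those lower. *Srsf2* was at 152, 155 and 162 CPM in the Input and 61.4, 54.1 and 63.9 CPM in the IP, and *Srsf3* (log2 -1.32 ± 0.053) and *Srsf6* (log2 -1.28 ± 0.054) were lower as well. Of the hnRNP genes, which encode abundant nuclear RNA-binding proteins, 1 of 20 tested members was higher in IP and 17 were lower, with a median of -0.78. *Hnrnpab* was at 419, 416 and 407 CPM in the Input and 95.6, 99.3 and 96.2 CPM in the IP, *Hnrnpf* fell from 178 ± 4.8 to 43.7 ± 3.1 CPM, and the only member called higher was *Hnrnph3* (log2 0.25 ± 0.07), a call lost when libraries were scaled by size only. Among the core spliceosomal snRNP and LSm proteins, 3 of 26 tested members were higher in IP and 21 were lower (median -1.23). Proteins of the Sm and LSm rings were among those lower, as *Lsm8* (log2 -3.33 ± 0.16), *Snrpd3* (log2 -2.60 ± 0.12) and *Snrpe*, which fell from 88.3 ± 4.2 to 16.6 ± 0.9 CPM. The particle-specific *Snrnp70* of U1 (log2 1.16 ± 0.051) and *Snrnp48* of the minor spliceosome (log2 1.84 ± 0.052) were 2 of the 3 members higher.

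Chromatin regulators formed the largest functional list with more members higher than lower, apart from the zinc finger genes: 67 of 104 tested members were higher in IP and 24 were lower, with a median log2 of 0.74. The remodeler *Chd7* was at 527, 489 and 498 CPM in the Input and 3852, 3879.8 and 3919 CPM in the IP (log2 2.94 ± 0.035). *Baz1a*, a subunit of ISWI complexes, was at 858, 793 and 794 CPM in the Input and 3757, 3961 and 4001 CPM in the IP, and *Ncor1*, the nuclear receptor corepressor, at 638, 590.4 and 591 CPM in the Input and 2790.4, 2942 and 2966 CPM in the IP. In each of these the lowest IP library was more than 4 times the highest Input library. *Brd2*, a bromodomain reader of acetylated histones, rose from 527 ± 20 to 2108 ± 1.1e+02 CPM, *Arid4a*, a corepressor subunit, from 349 ± 17 to 1934 ± 83 CPM, and *Chd6* from 84.8 ± 8.1 to 501 ± 15 CPM. Among the 24 members lower in IP, the demethylases *Kdm3a* (log2 -1.69 ± 0.1) and *Kdm4c* (log2 -1.42 ± 0.1) and the methyltransferase *Dnmt3b* (log2 -1.70 ± 0.25) had the largest falls. Of the Pur-element and CpG binding regulators, the list of *Purb*, 8 of 12 tested members were higher in IP and 2 were lower. All 4 ankyrin repeat cofactors were higher, with a median of 2.60, but this short list includes *Ankrd11* itself and was chosen with earlier results known. *Ankrd12*, the homolog of *Ankrd11*, was at 433, 418 and 412 CPM in the Input and 2675, 2841 and 2848 CPM in the IP, and *Ankrd17* rose from 253 ± 6.7 to 1060.3 ± 26 CPM.

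Sequence-specific transcription factors were also held more often than lost. Of the Zfp genes with a number, mostly KRAB and other C2H2 zinc finger repressors, 179 of 310 tested members were higher in IP and 42 were lower (median 0.59). *Zfp91*, an abundant member, rose from 472 ± 27 to 1784 ± 65 CPM (log2 1.92 ± 0.042), and *Zfp292*, whose longest exon has 8931 bases, from 79.6 ± 1.1 to 533 ± 8.4 CPM (log2 2.74 ± 0.041). The largest rises of the list were *Zfp599*, at 4.07, 5.49 and 4.65 CPM in the Input and 54.5, 54.5 and 56.8 CPM in the IP, and *Zfp629*, at 11.3, 12.5 and 11.7 CPM in the Input and 121, 113 and 112 CPM in the IP. *Zfp706*, a short-protein member, was at 109.9, 104 and 102 CPM in the Input and 22.9, 24.4 and 23 CPM in the IP and thus far lower in IP, as was *Zfp943* (log2 -2.71 ± 0.24). Among KLF and SP factors 8 of 19 tested members were higher in IP and 6 were lower. *Klf13* was at 229.6, 236 and 234 CPM in the Input and 1592, 1627 and 1604 CPM in the IP, and *Klf9* rose from 28.9 ± 0.11 to 154 ± 4.8 CPM, while *Sp1* fell from 47.2 ± 1.7 to 27.9 ± 3 CPM.

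For the transcription factors that set myeloid identity, 16 of 23 tested members were higher in IP and 5 were lower (median 0.48). *Cebpd*, a C/EBP factor of acute inflammation, was at 132, 135 and 129.9 CPM in the Input and 699, 702 and 611 CPM in the IP, and *Cebpb*, which drives emergency myelopoiesis and suppressor function, was at 519, 513 and 506 CPM in the Input and 1034, 995 and 973 CPM in the IP. *Klf4*, needed for monocyte differentiation, was at 236, 207 and 206 CPM in the Input and 653, 652 and 740.0 CPM in the IP. *Spi1*, which encodes PU.1, rose by less (log2 0.42 ± 0.039). *Mitf* and *Maf*, factors of macrophages, rose as well, by a log2 of 2.36 ± 0.053 and 2.07 ± 0.099. *Irf5*, a factor of inflammatory macrophages, and *Bhlhe40* were lower, with log2 values of -0.78 ± 0.05 and -0.74 ± 0.042. The immediate early genes, induced within minutes of a stimulus, were split by member, as 18 of 28 tested members were higher in IP and 7 were lower. *Jund* was at 509, 479 and 496 CPM in the Input and 1603, 1509 and 1624 CPM in the IP, *Jun* at 84.3, 80.2 and 82.4 CPM in the Input and 324, 329.6 and 338 CPM in the IP and *Ier5* at 124, 126 and 129.6 CPM in the Input and 543, 528 and 524 CPM in the IP. *Klf2* rose from 92.9 ± 3.8 to 371 ± 13 CPM, whereas *Fos* fell from 11.2 ± 0.77 to 5.8 ± 0.64 CPM, *Dusp1* from 32.6 ± 0.32 to 16.4 ± 2.5 CPM and *Egr3* from 8.22 ± 1 to 4.36 ± 1.2 CPM. Of the AP-1 genes named, *Jun* and *Jund* were thus higher and *Fos* lower.

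Sensors and their downstream kinases were then compared. Of the Toll-like receptors and adaptors, 13 of 19 tested members were higher in IP and 4 were lower, with a median log2 of 1.28. *Tlr2*, which senses bacterial lipoproteins, was at 102, 107 and 105 CPM in the Input and 277, 289.6 and 291 CPM in the IP, and *Tlr13*, a sensor of bacterial ribosomal RNA, was at 46.8, 51.3 and 54.1 CPM in the Input and 178, 166 and 149 CPM in the IP. The adaptor *Ticam1* (TRIF) rose from 18.4 ± 1.3 to 51.9 ± 4.2 CPM. The other main adaptor, *Myd88*, was at 237, 252 and 249.5 CPM in the Input and 157, 159.5 and 163 CPM in the IP, and *Tlr8* was also lower (log2 -0.88 ± 0.23). Among NF-κB subunits and regulators 19 of 38 tested members were higher in IP and 18 were lower, and the median of 0.14 turned negative when libraries were scaled by size only. *Traf1*, a signaling adaptor of TNF receptors, was at 199, 194 and 203 CPM in the Input and 868, 896 and 945 CPM in the IP, and *Nfkbia*, the inhibitor IκBα, rose from 397 ± 8.7 to 616 ± 11 CPM. Of the TNF superfamily ligands, 8 of 13 tested members were higher in IP and 2 were lower, among them *Tnfsf14* (LIGHT), which rose from 12.5 ± 0.68 to 62.6 ± 3.1 CPM, while *Tnf* fell from 71.3 ± 1.5 to 44.2 ± 4.8 CPM. The JAK and STAT genes, which relay cytokine signals, were mostly depleted, as 2 of 11 tested members were higher in IP and 9 were lower. *Jak2* was at 358, 364 and 364 CPM in the Input and 248, 251 and 245 CPM in the IP, *Stat5a* had a log2 of -1.23 ± 0.086, and *Stat4* was one of the 2 members higher (log2 0.38 ± 0.095), a call lost when libraries were scaled by size only. Their feedback inhibitors were mixed, since 5 of 8 tested members were higher in IP and 2 were lower. *Socs4* rose from 55.4 ± 1.7 to 168 ± 5.6 CPM and *Socs3* fell from 50.7 ± 2.3 to 34.3 ± 4 CPM. Of the interferon-stimulated genes 14 of 62 tested members were higher in IP and 19 were lower, shares below the backgrounds of 34.1% and 34.6%. Within that list *Eif2ak2* (PKR) rose from 53.6 ± 1.9 to 248 ± 6.2 CPM and *Slfn8* from 14.2 ± 0.79 to 83.4 ± 0.94 CPM, and *Mx1*, an antiviral GTPase, fell from 225 ± 7.8 to 86 ± 1.4 CPM.

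Cytokine receptors were split, and chemokine ligands were mostly lower in IP. Of the colony-stimulating factor and cytokine receptors, 13 of 26 tested members were higher in IP and 11 were lower. *Il6ra*, the alpha chain of the IL-6 receptor, was at 100, 104 and 104 CPM in the Input and 654, 645 and 632 CPM in the IP, and *Il10ra* at 199, 195 and 208 CPM in the Input and 663, 645 and 608 CPM in the IP. *Csf2rb*, the common beta chain for GM-CSF, IL-3 and IL-5, rose from 1730.1 ± 41 to 2697 ± 43 CPM, whereas its near copy *Csf2rb2*, with which it can share reads, fell from 404 ± 3.6 to 185 ± 5 CPM. *Tgfbr2* and *Il1rap* were lower too (log2 -1.45 ± 0.097 and -1.89 ± 0.18). Among chemokine receptors 8 of 14 tested members were higher in IP and 3 were lower, among the latter *Cxcr2*, the neutrophil receptor, which fell from 52.8 ± 1.4 to 24 ± 1.8 CPM. Of the interleukin ligands and the IL-1 system 5 of 20 tested members were higher in IP and 10 were lower. The chemokine ligands were depleted as a list, with a median of -1.51, and 2 of 20 tested members were higher in IP and 15 were lower. *Ccl6* was at 1268, 1238 and 1253 CPM in the Input and 237, 246 and 234 CPM in the IP and *Ccl17* at 396, 419 and 415 CPM in the Input and 63.3, 69.3 and 64.5 CPM in the IP. *Ccl9* fell from 370.1 ± 6.3 to 77.5 ± 1.8 CPM and *Ccl22*, the dendritic cell ligand of CCR4, from 829 ± 8.9 to 477 ± 11 CPM. Of the immune checkpoint and suppressor genes, 16 of 27 tested members were higher in IP and 5 were lower. *Sirpa*, the inhibitory receptor of phagocytes, was at 762, 777 and 767 CPM in the Input and 2113, 2168 and 2179.6 CPM in the IP, and its ligand *Cd47* was at 369, 392 and 376 CPM in the Input and 539.9, 545 and 539 CPM in the IP. *Vsir* (VISTA) rose from 228 ± 3.8 to 545 ± 11 CPM. *Lgals9* (galectin-9) fell from 44.5 ± 0.96 to 11.4 ± 0.28 CPM and the arginase *Arg2* from 11.1 ± 1 to 3.51 ± 0.081 CPM.

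Antigen presentation genes were lower more often than higher. The MHC class I list had 8 members higher and 14 lower of 22. *B2m*, the invariant light chain, was at 347, 361 and 366 CPM in the Input and 37.7, 32.5 and 37 CPM in the IP and classical *H2-D1* at 592, 621 and 623 CPM in the Input and 298, 317 and 279 CPM in the IP. The nonclassical *H2-Q6* (log2 3.19 ± 0.051) and *H2-Q4* (log2 2.42 ± 0.042) were far higher in IP, but these loci share near-identical sequence, so the split of reads among them is uncertain. For MHC class II, 3 of 16 tested members were higher in IP and 12 were lower. *H2-Ab1* was at 790.1, 798 and 794 CPM in the Input and 237, 231 and 229 CPM in the IP, and the protease *Ctss*, which trims the invariant chain, at 539.5, 569 and 558 CPM in the Input and 100.2, 98.8 and 88 CPM in the IP. The members higher included the master transactivator *Ciita*, which rose from 123 ± 1.8 to 234 ± 21 CPM, and *Rfxap*, a subunit of the RFX complex, from 38.2 ± 1.9 to 106 ± 16 CPM.

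Genes that mark myeloid effector cells were mostly lower in IP. Of the 18 defining markers of CD11b+ cells 3 were higher and 14 lower, and of the macrophage and monocyte genes 6 of 25 tested members were higher in IP and 14 were lower. Of the neutrophil granule protein genes 2 of 19 tested members were higher in IP and 17 were lower (median -1.65). *Lyz2*, lysozyme, was at 2319.9, 2391 and 2362 CPM in the Input and 243, 266 and 239.6 CPM in the IP and *Ltf*, lactoferrin, at 2367, 2395 and 2363 CPM in the Input and 894, 887 and 878 CPM in the IP. *Ngp* fell from 1709 ± 47 to 440.4 ± 14 CPM and the chitinase-like *Chil3* from 1076 ± 28 to 159 ± 7.5 CPM. The 2 members higher were *Padi4*, which citrullinates histones in neutrophil traps (log2 0.86 ± 0.041), and *Cybb*, the catalytic subunit of the phagocyte oxidase (log2 0.32 ± 0.032). Among S100 genes 1 of 11 tested members was higher in IP and 8 were lower, with *S100a8* at 1780.4, 2139 and 2103 CPM in the Input and 282, 299.9 and 254 CPM in the IP and *S100a9* at 3180.4, 3497 and 3404 CPM in the Input and 1293, 1377 and 1351 CPM in the IP. *S100a11* was the 1 member higher (log2 0.35 ± 0.039). The integrin chains, which pair into adhesion receptors, were split. *Itgam*, which encodes CD11b, was at 909, 899 and 898 CPM in the Input and 694, 729 and 734 CPM in the IP, its partner *Itgb2* at 614, 568 and 549.9 CPM in the Input and 204, 197 and 226 CPM in the IP, and *Itga5*, the fibronectin receptor chain, at 137, 142 and 139 CPM in the Input and 792, 775 and 816 CPM in the IP. At the Fc receptor, the signaling chain *Fcer1g* fell from 448 ± 5 to 194 ± 12 CPM and the kinase *Syk* rose from 420.1 ± 4.7 to 1056 ± 31 CPM. *Mertk*, which clears dying cells, was also higher in IP (log2 1.33 ± 0.067).

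Genes of translation were mostly lower in IP, apart from those of ribosome biogenesis. Of the cytosolic ribosomal protein genes 81 of 85 tested members were lower and the other 4 were not called in edgeR's quasi-likelihood test, with a median log2 of -1.20, although processed copies of many of these genes can take part of their reads. *Rpsa* was at 9195, 8631 and 8535 CPM in the Input and 5971, 6116 and 6477 CPM in the IP, *Rplp0* at 3888, 3359 and 3342 CPM in the Input and 1738, 1735 and 1928 CPM in the IP and *Rpl39* at 189, 196 and 206 CPM in the Input and 20, 23.2 and 19.2 CPM in the IP. The falls of these 3 genes thus ran from a log2 of -0.51 ± 0.034 in *Rpsa* to -3.24 ± 0.069 in *Rpl39*. *Rps27l*, a p53-induced paralog of a ribosomal protein, fell as well (log2 -2.94 ± 0.074). The mitochondrial ribosomal proteins were less uniform, with 10 higher and 57 lower of 77. *Mrpl43* rose from 75.5 ± 4.3 to 180.1 ± 3.8 CPM and *Mrps7* from 55.5 ± 4.5 to 171 ± 9.6 CPM, while *Mrps36* fell from 16 ± 1.3 to 1.59 ± 0.95 CPM. Among translation factors, 11 of 51 tested members were higher in IP and 35 were lower. *Eef1a1*, the elongation factor, was at 2678, 2754 and 2787 CPM in the Input and 885, 889.8 and 846 CPM in the IP, the poly(A)-binding *Pabpc1* at 2135, 2140.3 and 2154 CPM in the Input and 1077, 1053 and 1053 CPM in the IP, and *Eif2s1* had a log2 of -2.57 ± 0.12. *Eif5b*, the large GTPase that joins the subunits, was at 833, 708 and 710.2 CPM in the Input and 2953, 3101 and 3387 CPM in the IP. Ribosome biogenesis genes were split, as 23 were higher and 22 lower of 49.

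Energy metabolism genes were also mostly lower. Of the nuclear-encoded subunits of oxidative phosphorylation, 1 of 82 tested members was higher in IP and 77 were lower (median -1.77). *Cox7b* was at 171, 162 and 151 CPM in the Input and 15.8, 17.1 and 16.8 CPM in the IP, *Atp5e* at 87.2, 90 and 94 CPM in the Input and 9.55, 6.88 and 6.88 CPM in the IP and *Ndufb6* at 18.7, 22.3 and 19.2 CPM in the Input and 1.8, 0.884 and 1.23 CPM in the IP. The 1 member higher was *Cox7a2l*, a factor of supercomplex assembly, at 203, 200.1 and 189 CPM in the Input and 810.3, 817 and 815 CPM in the IP. The mRNAs of the mitochondrial genome, which are translated inside the organelle, were lower in 11 of 13 cases. *mt-Co1* was at 1588, 1579.8 and 1589 CPM in the Input and 183, 173 and 158 CPM in the IP, *mt-Cytb* at 1444, 1519 and 1509.7 CPM in the Input and 721, 734 and 713 CPM in the IP and *mt-Atp6* at 79.5, 70.7 and 68.8 CPM in the Input and 6.53, 4.93 and 8.04 CPM in the IP. *mt-Nd1* was at 1890.0, 1868 and 1927 CPM in the Input and 1963, 1999.6 and 2035 CPM in the IP, a log2 of 0.08 ± 0.03 that turned negative when libraries were scaled by size only. The call of *mt-Nd1* was lost with the replicate number as a block (adjusted p = 0.0728 in edgeR's quasi-likelihood test) and without any 1 Input library, where the log2 was 0.04 to 0.07. Both mitochondrial rRNAs fell much further, *mt-Rnr1* to a log2 of -5.42 ± 0.052 and *mt-Rnr2* of -6.39 ± 0.04. Among glycolysis genes 3 of 23 tested members were higher in IP and 16 were lower. *Gapdh* fell from 274 ± 12 to 44.4 ± 5.7 CPM and *Pgam1* from 96.2 ± 3.2 to 9.63 ± 0.58 CPM, whereas *Hk2*, the inducible hexokinase, rose from 144 ± 3.6 to 334 ± 6.9 CPM. Of the hypoxia response genes 1 of 21 tested members was higher in IP and 15 were lower, including the regulator *Hif1a*, which fell from 55.3 ± 1.2 to 13.7 ± 2.1 CPM, and *Bnip3*, from 13 ± 1.6 to 1.31 ± 0.57 CPM. The redox defence list had 22 of 27 lower. *Txn1* (log2 -3.13 ± 0.072) and *Prdx1* (log2 -2.72 ± 0.054) were among them, while *Keap1*, the repressor of the response, rose from 79.2 ± 2.2 to 204 ± 23 CPM. For iron, *Fth1* was at 3833, 3763 and 3759 CPM in the Input and 488, 501 and 494 CPM in the IP and *Ftl1* at 5012, 5353 and 5250.0 CPM in the Input and 1978, 1922 and 1832 CPM in the IP, the heavy and light ferritin chains, and the transferrin receptor *Tfrc* fell from 93.9 ± 3.2 to 15.5 ± 1.2 CPM. Haptoglobin, *Hp*, rose from 203 ± 6.2 to 569 ± 25 CPM. Genes of cholesterol synthesis, uptake and efflux followed the same direction, as 3 of 36 tested members were higher in IP and 29 were lower.

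Actin and proteasome genes were mostly lower in IP, whereas the giant cytoskeletal and linker genes were split, since 12 of 28 tested members were higher in IP and 11 were lower. Of the actin and actin-binding genes 1 of 27 tested members was higher in IP and 26 were lower (median -1.38). *Actb* was at 6753, 6920.2 and 6834 CPM in the Input and 1946, 1948 and 1953 CPM in the IP and *Tmsb4x*, which sequesters actin monomers, at 3679, 3820.3 and 3773 CPM in the Input and 872, 869.8 and 845 CPM in the IP. *Actg1* had a log2 of -2.78 ± 0.043, and *Arpc1a* was the 1 member higher (log2 0.24 ± 0.056), a call lost when libraries were scaled by size only. Of the proteasome subunits 7 of 47 tested members were higher in IP and 37 were lower. *Psmb2* (log2 -2.76 ± 0.14) and *Psma2* (log2 -2.63 ± 0.12) were low, and *Psmd7* of the regulatory particle rose from 178 ± 7 to 504 ± 11 CPM. The ubiquitin ligases and deubiquitinases held some of the strongest rises despite 19 of 36 members lower. *Usp34* was at 259.8, 231 and 230.4 CPM in the Input and 1975, 2073 and 2168 CPM in the IP and *Fbxw7*, the substrate receptor for MYC and cyclin E, at 52.3, 52.7 and 48.8 CPM in the Input and 396, 385 and 399.6 CPM in the IP. Among small GTPases *Rab7b*, a late endosomal protein of myeloid cells, was at 67.2, 59.5 and 60 CPM in the Input and 732, 768 and 852 CPM in the IP, whereas *Rac2*, which activates the phagocyte oxidase, was at 320.3, 327 and 319 CPM in the Input and 118, 119.6 and 131 CPM in the IP and *Rab1a* fell from 123 ± 3.8 to 22.9 ± 3 CPM. The chaperone *Hsp90aa1* rose from 1205 ± 88 to 3033 ± 1.6e+02 CPM. Among lysosomal hydrolases 10 of 44 tested members were higher in IP and 31 were lower, for example *Dnase2a*, which degrades engulfed DNA and rose from 216 ± 11 to 843 ± 45 CPM, and *Psap*, the precursor of the saposins, which fell from 1949 ± 85 to 991 ± 41 CPM. The vacuolar ATPase, which acidifies the lysosome, had 16 of 18 tested subunits lower.

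Of all lists of protein-coding genes, the replication-dependent histones had the lowest median. These mRNAs, which end in a stem loop in place of a poly(A) tail, had 53 of 59 tested members lower and a median log2 of -3.29. *Hist1h4h* was at 17.5, 18.3 and 16.1 CPM in the Input and 0.547, 0.537 and 0.673 CPM in the IP, and the linker histone *Hist1h1c*, at 143, 138 and 141 CPM in the Input and 93.8, 87.5 and 92.3 CPM in the IP, was the most abundant of the list and fell by less (log2 -0.63 ± 0.05). The 1 member higher was *Hist3h2a* (log2 1.20 ± 0.22). Near-identical coding sequences make single histone genes uncertain. Genes on the list of replacement histones were divided, with *H3f3a* at 316, 334 and 329.6 CPM in the Input and 24, 28.1 and 28.1 CPM in the IP, *H2afz* fallen from 300.3 ± 5.5 to 41.8 ± 2.4 CPM, and *H2afx*, a gene with 1 exon whose product marks DNA breaks, at 134, 137 and 136 CPM in the Input and 924, 975 and 946 CPM in the IP. Of the cell cycle and replication genes 14 of 58 tested members were higher in IP and 40 were lower. *Ccnb1* fell from 25 ± 1.3 to 3.26 ± 1.1 CPM and *Pcna* from 47.6 ± 4.1 to 10.2 ± 2.6 CPM, and *Mki67*, with one exon of 6836 bases, rose from 646 ± 10 to 1505 ± 30 CPM. Of the p53 targets 9 of 34 tested members were higher in IP and 16 were lower. *Cdkn1a* was at 323, 330.2 and 326 CPM in the Input and 148, 152 and 151 CPM in the IP, and *Trp53* itself fell from 44.6 ± 2.9 to 14 ± 2.7 CPM. Within the BCL2 family the founding *Bcl2* was at 38.1, 35.2 and 32.6 CPM in the Input and 219, 235 and 222 CPM in the IP and *Mcl1*, the survival factor of myeloid cells, at 522, 553 and 533 CPM in the Input and 307, 299 and 302 CPM in the IP.

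**Figure D3:**
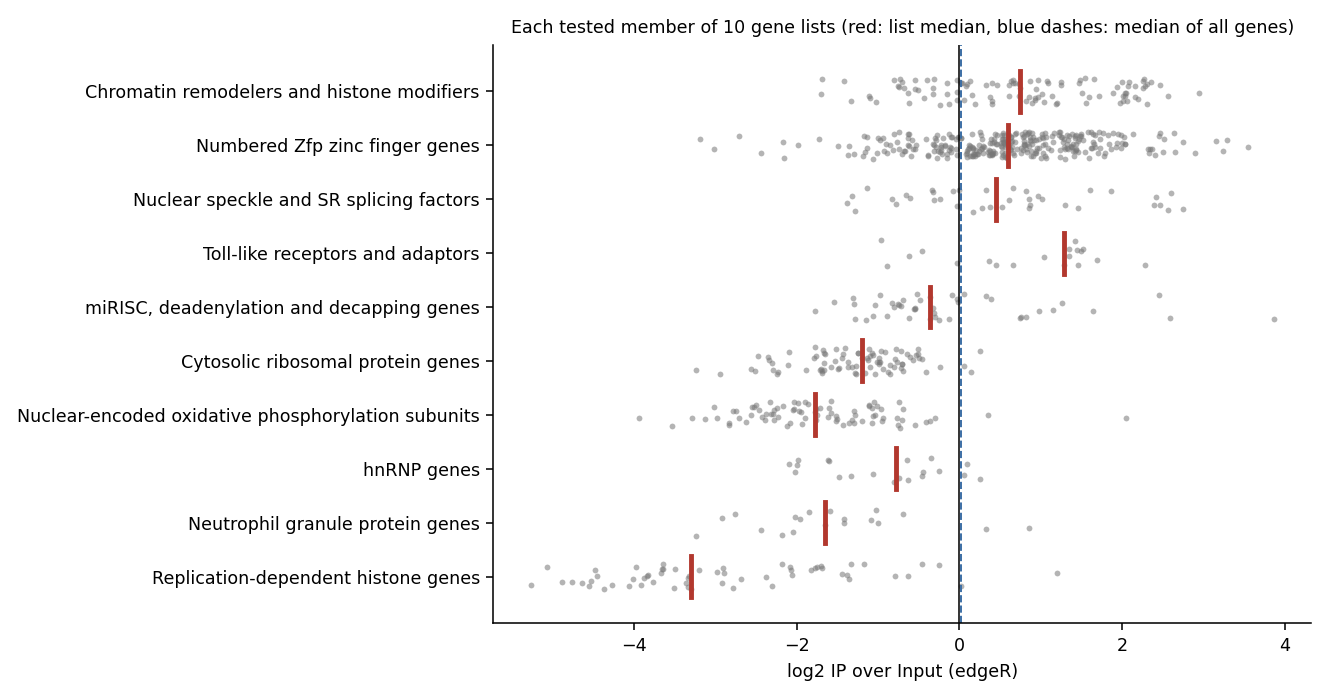
Log2 IP over Input of every tested member of 10 gene lists (grey points, spread vertically at random to be visible), with the list median in red, 0 as a black line and the median of all tested genes as blue dashes. Histone, oxidative phosphorylation and ribosomal protein members lie almost entirely below 0, and the 3 GW182 genes are the rightmost points of the miRISC list, the highest at 3.86.

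The protein-coding genes with the largest rises at a mean of at least 100 counts included, beside *Tnrc6c* and *Rab7b*, *Plcl2*, a phospholipase C-like signaling protein, at 156, 150.0 and 139 CPM in the Input and 1725, 1808 and 1927 CPM in the IP, *Amer1*, a regulator of WNT signaling, at 16.7, 14.6 and 15.1 CPM in the Input and 172, 185 and 198 CPM in the IP, and *Slco3a1*, an organic anion transporter, at 78, 66.2 and 67 CPM in the Input and 769, 808 and 789 CPM in the IP. *Clec1a*, a C-type lectin receptor, was low in the Input, at 0.385, 0.563 and 0.584 CPM in the Input and 5.24, 7.52 and 5.61 CPM in the IP. At the other end, apart from histones, were *Wfdc17*, a secreted protease inhibitor-like protein, at 40, 40.2 and 42.5 CPM in the Input and 2.15, 0.853 and 2.09 CPM in the IP, *Gng5*, a G protein gamma subunit, at 78.6, 78.9 and 79.8 CPM in the Input and 5.05, 2.68 and 2.5 CPM in the IP, and *Srgn*, the granule proteoglycan serglycin, at 170.0, 164 and 164 CPM in the Input and 10.7, 11.3 and 11.6 CPM in the IP. The transcripts of these 3 genes are shorter, with 533, 2419 and 1727 bases in their longest coding form. Those of the genes with large rises have 4185 bases in *Plcl2*, 4498 in *Rab7b*, 4589 in *Slco3a1*, 5128 in *Clec1a*, 8496 in *Amer1* and 8847 in *Tnrc6c*.

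Noncoding transcripts differed by class. Long intergenic noncoding RNAs took 3.2% ± 0.12 (SD, n = 3) of Input counts and 7.67% ± 0.13 (SD, n = 3) of IP counts, and 280 of 592 tested members were higher in IP and 41 were lower (median log2 0.96). Antisense RNAs took 0.165% ± 0.0013 (SD, n = 3) of Input counts and 0.309% ± 0.0047 (SD, n = 3) of IP counts, and 213 of 550 tested members were higher in IP and 31 were lower. Transcripts listed as still to be experimentally tested (TEC) took 0.305% ± 0.0031 (SD, n = 3) of Input counts and 0.73% ± 0.0047 (SD, n = 3) of IP counts, and 401 of 968 tested members were higher in IP and 90 were lower. Transcripts that lie within introns on the sense strand took 0.0317% ± 0.00032 (SD, n = 3) of Input counts and 0.0768% ± 0.0022 (SD, n = 3) of IP counts. A gene that is low in the Input can pass the filter through the IP alone. The counts were also taken where the mean count over the 6 libraries was 100 or more, a limit chosen after seeing the data that a gene can still pass through the IP. Then 106 of 144 intergenic RNAs were higher and 16 lower, 72 of 107 antisense RNAs were higher and 15 lower, and 229 of 285 TEC transcripts were higher and 16 lower, against 36.9% higher and 45.3% lower among all 11610 genes at that level. These classes rose together with the share of reads on no annotated gene, 27.0% in the Input and 42.3% in the IP, and the part of that share was not tested.

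All 9 tested nuclear long noncoding RNAs on a list of known ones were higher in IP, with a median of 1.68. Only 5 of them had a mean of at least 100 counts, and those low in the Input can have passed the filter through the IP alone. *Malat1* was at 22086, 20106 and 20119 CPM in the Input and 64172, 67096 and 68668 CPM in the IP and *Neat1*, which builds paraspeckles, at 973, 951 and 969 CPM in the Input and 2352, 2366 and 2361 CPM in the IP. *Tug1* was at 74.6, 74.8 and 77.5 CPM in the Input and 439, 414 and 457 CPM in the IP, and *Kcnq1ot1*, an imprinted antisense RNA, rose from 169 ± 2.7 to 392 ± 7.2 CPM. Other noncoding genes with high values were *Gm42047*, which rose from 1559 ± 32 to 4939 ± 1.6e+02 CPM, *AI504432*, from 44.9 ± 1.6 to 484 ± 30 CPM, and the TEC transcript *A130071D04Rik*, from 187 ± 18 to 843 ± 62 CPM. In contrast, host RNAs of small nucleolar RNAs were mostly lower, since 2 of 14 tested members were higher in IP and 9 were lower. *Mir155hg*, the precursor of miR-155, fell from 10.6 ± 0.38 to 1.37 ± 0.37 CPM. *Bc1*, a short RNA made by RNA polymerase III, was at 99, 98.1 and 91.9 CPM in the Input and 3.95, 7.33 and 6.36 CPM in the IP.

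**Figure D4:**
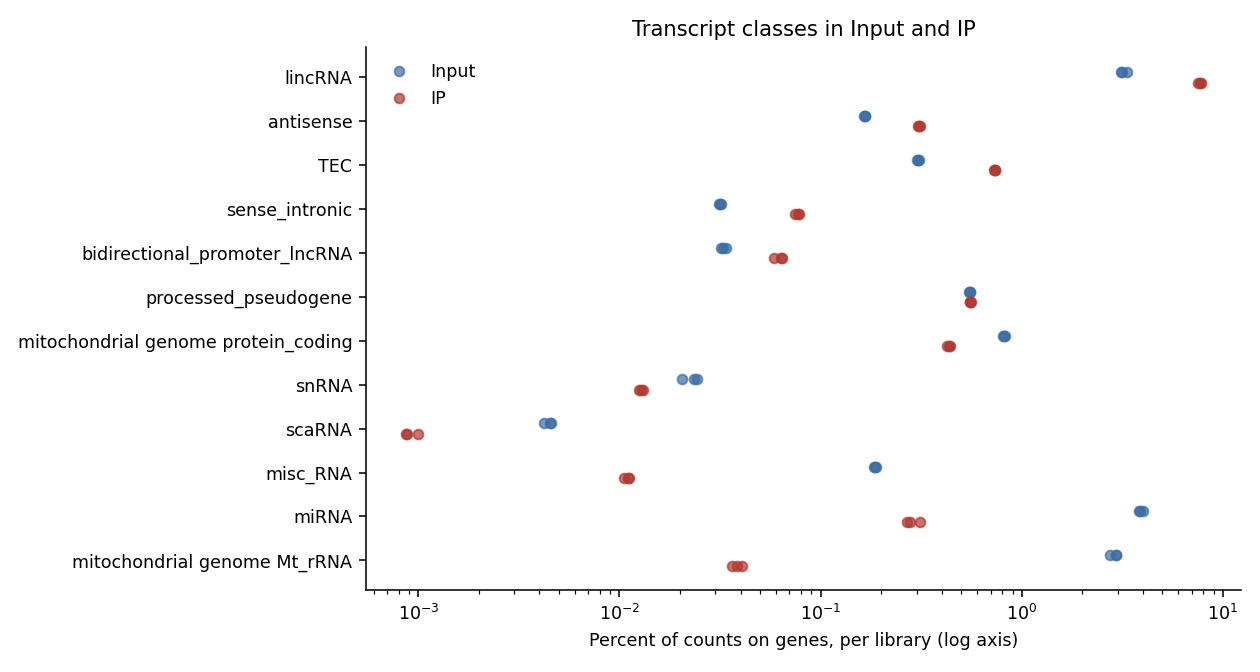
Share of the counts on genes taken by 12 transcript classes in each Input (blue) and IP (red) library, in percent on a log axis. Long noncoding classes lie to the right in IP, processed pseudogenes take about the same share in both, and mitochondrial rRNA, miscellaneous RNA, miRNA, scaRNA and snRNA lie to the left in IP.

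Several short structured RNAs were among the genes with the largest falls. The 7SK RNA, *Rn7sk*, which holds the elongation factor P-TEFb, was at 1214, 1253 and 1252 CPM in the Input and 85.1, 85.9 and 82.1 CPM in the IP. The signal recognition particle RNAs *Rn7s1* and *Rn7s2* were at 149, 128 and 136 CPM in the Input and 3.41, 3.85 and 3.63 CPM in the IP and at 291, 263 and 267 CPM in the Input and 6.69, 6.88 and 6.17 CPM in the IP. The U1 small nuclear RNA *Rnu1a1* was at 17.2, 39 and 36.8 CPM in the Input and 0.836, 0.158 and 0.224 CPM in the IP, with 1 Input library well under the other two, and the Cajal body RNA *Scarna2* fell from 13.1 ± 0.45 to 1.89 ± 1.6 CPM. Over all tested snRNA genes the median log2 was 0.16, but over the 16 with a mean of at least 100 counts it was -4.25, with 10 lower and 6 higher. Small nucleolar RNAs, which lie within introns of host genes, went in both directions. *Snora17* rose from 4.8 ± 0.7 to 9.77 ± 0.9 CPM and *Snord17* fell from 7.14 ± 0.83 to 2.01 ± 0.37 CPM, and 23 of 81 tested members were higher in IP and 16 were lower. Mitochondrial rRNA took 2.88% ± 0.11 (SD, n = 3) of Input counts and 0.0385% ± 0.0022 (SD, n = 3) of IP counts, and the genes annotated as miRNA 3.9% ± 0.11 (SD, n = 3) of Input counts and 0.287% ± 0.023 (SD, n = 3) of IP counts. Nearly all of that miRNA share was *Gm23935*, which fell from 36232 ± 1.3e+03 to 2882 ± 2.7e+02 CPM. Libraries of this type do not measure mature miRNAs, and a count on a miRNA gene is of any RNA whose reads align to its annotated span. Which RNA gave the reads on the 57 bases of *Gm23935* was not tested.

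Where the mean count was 100 or more, the largest rise of a miRNA gene was that of *Mir142*, the blood-cell miRNA locus, at 28.8, 26.1 and 28.5 CPM in the Input and 72.9, 72.1 and 82.8 CPM in the IP (log2 1.45 ± 0.076). Its mature arms are shown to identify the locus, from RefSeq on GRCm38.p6, 5′ to 3′ with the seed, bases 2 to 8, in capitals, and they lie on chromosome 11 at 87756867 to 87756887 and at 87756903 to 87756925 on the plus strand. The seeds differ, and neither arm was measured separately.
mmu-miR-142a-5p: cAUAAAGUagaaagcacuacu
mmu-miR-142a-3p: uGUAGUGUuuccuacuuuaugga

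Features of the transcripts were compared over 13019 protein-coding genes, using the longest coding transcript of each. Genes were split into quintiles by each feature, and Spearman correlations are across genes, which are not independent replicates and share libraries, length and base composition. Of the features, transcript length had the largest correlation with the log2 IP over Input. In the shortest quintile, up to 1755 bases, 20.0% of genes were higher and 53.6% lower, and in the longest, from 5097 bases, 46.5% were higher and 28.7% lower (rho 0.25). The length of the longest exon behaved alike, from 19.5% higher and 52.8% lower up to 625 bases to 47.8% higher and 27.4% lower from 3056 bases (rho 0.23). The density of exon junctions ran the other way. With up to 1.18 junctions per kilobase 47.8% of genes were higher, and with 4.90 or more 24.1% were (rho -0.19). For the 3′ UTR only the longest quintile, from 2585 bases, stood apart, with 44.2% higher and 31.7% lower (rho 0.12). GC content and the IP rose together, from 26.7% higher and 52.9% lower in the quintile of lowest GC to 39.1% and 27.8% in the highest (rho 0.18).

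**Figure D5:**
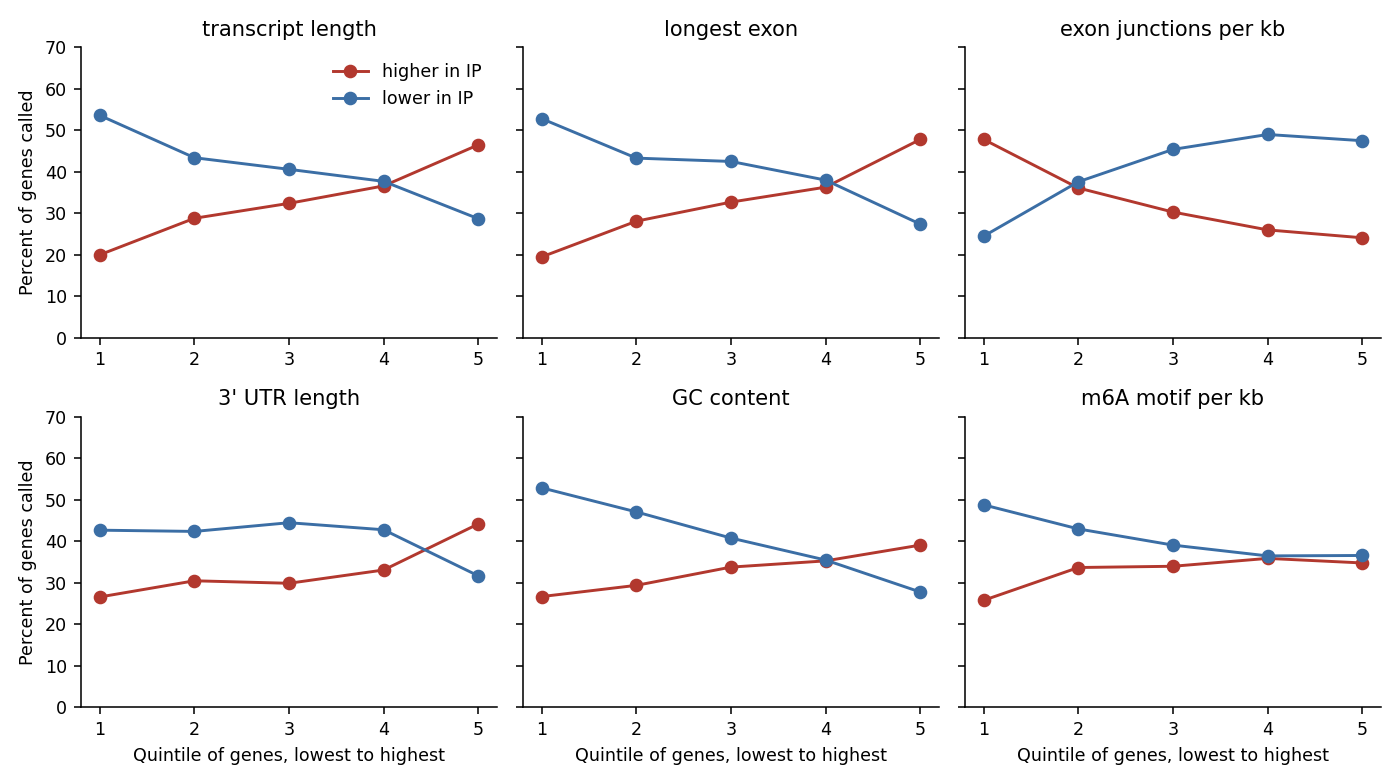
Percent of protein-coding genes called higher (red) or lower (blue) in IP, by quintiles of 6 transcript features from lowest (1) to highest (5). The red and blue lines cross between quintiles 4 and 5 for transcript length, longest exon and 3′ UTR length, and the density of the GGACT motif separates mainly the lowest quintile from the rest.

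Length and exon structure overlap, so they were combined. Within the shortest tertile of transcripts, up to 2334 bases, the share of genes higher went from 16.2% where the longest exon was at most 483 bases to 30.4% where it was at least 881 bases. In the longest tertile, from 4028 bases, it went from 35.9% with a longest exon of at most 2468 bases to 51.7% with one of at least 3969 bases. In the middle tertile the 3 shares were 30.4%, 30.7% and 37.4%. The share of genes higher thus rose with the longest exon within the shortest and longest tertiles. In the middle tertile the median log2 values were -0.13, -0.23 and 0.035, without a steady rise. Transcript length still varies within a tertile, so this split does not separate the longest exon from length.

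Genes without introns were set against the rest. Of 404 tested intronless protein-coding genes 169 were higher and 116 lower, with a median log2 of 0.31, against -0.11 over 12625 genes with introns. Without histone and numbered Zfp genes, a choice made after seeing the data, 167 of 346 were higher and 64 lower (median 0.60). *Purb*, *H2afx*, *Jun*, *Jund*, *Ier5*, *Cebpb* and *Cebpd*, described above, are examples that were higher. They were named for their level or a large change, so they do not show the direction of the group. *Maf*, also higher, has a single exon in its longest coding transcript but is not intronless as a gene. *Hist1h4h* and *Hist1h1c*, also of a single exon, were lower.

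The motif GGACT, searched on the transcript strand, was absent from 991 transcripts of 13019, and 581 of these genes were lower and 179 higher (median -0.74). Among the 12028 with the motif, 4733 were lower and 4099 higher (median -0.07). By density, the quintile with at most 0.549 per kilobase had 25.8% higher and 48.8% lower, and the other 4 quintiles had between 33.7% and 35.9% higher (rho 0.094). A short transcript has less room for the motif, so the split by its absence is not separate from length. Within the tertiles of transcript length, from shortest to longest, GGACT density had a rho of 0.12, 0.12 and 0.086 with the log2 IP over Input. The depleted *Actb* holds the motif 4 times, *Lyz2* 3 times and *H3f3a* 3 times, whereas *Fth1*, *S100a8*, *S100a9*, *Rpl39* and *Srgn* hold none. Restricted to a mean count of 100 or more, the same features gave correlations of 0.27 for transcript length, 0.26 for the longest exon, -0.21 for junction density, 0.14 for the 3′ UTR, 0.18 for GC content and 0.10 for GGACT density. The Input level ran against the log2 IP over Input, of which it is the denominator, so they are not independent. The quintile of lowest Input level had a median log2 of 0.59 and the other 4 had medians between -0.30 and -0.15 (rho -0.21). Genes that low in the Input, with a median of 0.692 CPM, can pass the filter through their IP counts, and with a mean count of 100 or more the lowest quintile had a median of 0.08 (rho -0.093).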

How the data were processed

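Counts of reads per gene were deposited for each library. Per the paper's methods, the authors trimmed reads with Trimmomatic, aligned them to mm10 with HISAT and counted them on GENCODE M19 genes with HTSeq. The strand setting is not given in the sources used here, so reads of overlapping genes can be mixed. Of the 217 named genes, which leave out the markers *Cdh1* and *Thy1*, 74 share exon bases with another gene. Here the lines for unassigned reads were dropped, and 54446 identifiers were matched to GENCODE M21 on GRCm38 (99.93%). Genes that reached 10 counts in 3 or more of 6 libraries were fitted with edgeR 4.0.16 in R 4.3.3 (TMM, quasi-likelihood test, Benjamini-Hochberg adjusted p-value under 0.05), without a block, since the study names none. The deposited counts were also fitted with DESeq2 1.42.0, other scalings and filters, 2-fold calls, thinned libraries and left-out libraries. The methods take IP and Input from the same lysate, so equal replicate numbers may pair the samples, which the labels do not state. The deviations of these pairs from their group means were hardly correlated (-0.00827, 0.000707 and 0.0159). Tested on simulated counts of 16916 genes for this comparison, edgeR recovered 86% of 200 genes changed 2-fold, with 4.44% false among its calls. Only those 200 genes changed in the simulation, whereas most tested genes were called in the data, so these rates need not hold here. RPKM used the union of exons, and transcript features the longest coding transcript. The gene lists, classes and features were chosen with earlier results of these data known. Genes named are *Ythdf2*, the marker genes, and per list and class the most abundant members and the largest rises and falls at a mean of at least 100 counts with no overlap of IP and Input. Some genes given by this rule are not reported here. Irradiated libraries were not used here.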

Additional observations from a re-analysis of the deposited data

Results flagged for a closer look

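In the IP libraries 42.3% ± 0.46 (SD, n = 3) of the counted reads lay on no annotated gene, against 27.0% ± 0.023 (SD, n = 3) in the Input. The share stood out because these reads enter none of the comparisons above, and all 3 IP libraries lay above all 3 Input libraries. What these reads cover was not tested.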

How the results depend on the processing

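The numbers of genes higher and lower, 5943 and 6019, stayed within 1.5 times under every alternative scaling, filter, test and left-out library tried, and moved only when a 2-fold change was also asked for, to 3625 and 3232. With the replicate number as a block, which pairs IP and Input of equal number, 5695 genes were higher and 5933 lower, 11555 of them with the same call. Of the named genes only *mt-Nd1* lost its call under the block. DESeq2 gave 6092 higher and 5869 lower. Without any filter, 34847 genes were tested, with 6703 higher and 6549 lower. Without 1 library or 1 pair, between 4842 and 5550 were higher and between 5204 and 5908 lower.

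Scaling by library size only moved the median of all genes by -0.18 and gave 5067 higher and 6977 lower, and upper-quartile scaling moved it by 0.18 and gave 6862 higher and 5165 lower. Small medians changed sign with these shifts. Under library size only, NF-κB genes went to -0.049, m6A writers and erasers to -0.077, ribosome biogenesis genes to -0.18, giant cytoskeletal genes to -0.15 and *mt-Nd1* to -0.11. Under upper-quartile scaling, interferon-stimulated genes went to 0.002, inflammasome genes to 0.038, the BCL2 family to 0.028, B and plasma cell markers to 0.057 and *Ythdf1* to 0.026. With no filter, which also changes the TMM factors, the writers went to -0.007, ribosome biogenesis to -0.11, giant cytoskeletal genes to -0.079 and *mt-Nd1* to -0.037. Protein-coding genes alone put the B and plasma cell markers at 0.33, and 10 counts in all 6 libraries the fibroblast markers at 0.24.

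Leaving out 1 library or 1 pair moved the B and plasma cell markers between -0.30 and 0.089, with 0.063 without IP replicate 3. It moved the BCL2 family between -0.20 and 0.008, the latter without IP replicate 2, ribosome biogenesis between -0.048 and 0.10, with -0.034 without Input replicate 1, and T and NK cell markers between -0.13, without pair 3, and 0.80. At a mean of at least 100 counts, snRNA genes went to -4.25, miRNA genes to -1.96 and unprocessed pseudogenes to -1.24. The causes were not tested. Of 1272 list medians computed under alternatives 19 changed sign. Of 217 named genes, *Ythdf3*, *Hnrnph3*, *Stat4*, *mt-Nd1* and *Arpc1a* lost their call under at least 1 alternative, and *Ythdf1* gained one when scaled by library size only and with no filter.

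These limits apply to all values. The pools are technical replicates, so spread between mice is not in the errors. No control antibody was used here, so carry-over of RNA in the IP is not subtracted. With 3 counts worth 0.0701 to 0.112 CPM, genes near 1 CPM in either group have imprecise ratios.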
